A study of Saccharomyces cerevisiae with 12 samples.

Results

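The genes described here encode proteins of the mitochondrial ribosome of Saccharomyces cerevisiae. They were chosen by name, as the yeast genes whose array symbol is MRP, MRPL, MRPS or RSM followed by a number, with MRP8 left out and 1 probe set per gene. This gave 65 of the 5449 named yeast genes on the array, 37 of the large subunit and 28 of the small subunit. MRP35 fits the naming pattern in the yeast gene table but has no probe set under that name in the annotation used here. A list of 12 further proteins of this ribosome with other names, which may not be complete, is given apart.

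The mitochondrial ribosome translates the few proteins that the mitochondrial genome encodes, most of them core subunits of the respiratory chain and of the ATP synthase. Nearly all of its proteins are encoded in the nucleus, made in the cytosol and imported, and then assembled on RNAs transcribed inside the organelle. Some belong to families shared with bacterial ribosomes (names beginning in u or b, such as uS12), while others occur in mitochondria and have no bacterial counterpart (names beginning in m, such as mL41). In yeast, this gene group is known for its ties to respiratory growth and to the RNA-binding protein Puf3. The question for these genes was whether their mRNA levels differed between strains that use galactose differently, and whether the large and the small subunit genes moved alike.

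The study hybridised RNA from 12 yeast samples to Affymetrix arrays, 2 for each of 6 strain labels. E62A, E62B and E62C mark 3 mutants evolved on galactose. SO16 is known from the study as an engineered strain with deletions of the regulators GAL80 and MIG1 and of the peptidase gene LAP3, PGM2 as a strain that overexpresses phosphoglucomutase, and REF is the unmodified strain. All 6 share the CEN.PK113-7D background, a minimal medium with galactose, aerobic batch growth in a fermenter held at pH 5.0, and sampling in mid exponential phase. The labels do not say whether the replicates of a strain were separate cultures or whether an evolved mutant is 1 clone, so p-values reflect spread among these arrays only and could be technical in origin.

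Strain labels were checked against the genes they name, in log2 units. On the arrays labelled SO16, GAL80 read 6.29 and 6.04, against 11.32 and 11.43 on REF arrays, and MIG1 and LAP3 were likewise near background. The PGM2 gene went against its label. It read 10.49 and 10.87 on the arrays labelled PGM2 and 13.43 and 13.19 on those labelled E62C, against 12.14 and 12.11 on REF arrays. The PGM2 gene read 11.41 and 11.40 on E62A arrays, 12.17 and 12.14 on E62B and 11.75 and 11.62 on SO16. The labels E62A, E62B and REF name no gene, so they could not be checked in this way. Strain names below are those on the labels, and every direction given for arrays labelled PGM2 or E62C carries this conflict. 2 arrays, E62C replicate 2 and SO16 replicate 2, also stood apart from the other 10. Their hybridisation controls averaged 8.99 log2 units, against 10.24 to 11.78 on the others, and their probe sets for ribosomal RNA averaged 11.7, against 8.89 to 10.3.

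All 65 genes gave a clear signal. Their values on single arrays ran between 9.30 and 12.4 log2 units, while the background, set as the 95th percentile of the fission yeast probe sets on the same array, was 6.0. The array also carries fission yeast counterparts, which budding yeast RNA should not bind. All 46 fission yeast probe sets with the same kind of name averaged below background, with array medians between 5.73 and 5.76. These 46 belong to the pool that set the background, so most of them had to fall below it. They are no separate check of that level. Probe sets differ in how strongly they bind, so no gene's level is set against another's here. RSM22, which encodes a methyltransferase-like protein of the small subunit, averaged 9.43 over the 12 arrays and MRPL39, the bL33 protein, averaged 11.77, both far above background.

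Most of the genes differed little between the 6 strains. The distance between a gene's highest and lowest group mean had a median of 0.22 log2 units over the 65 genes, with extremes of 0.10 and 0.55, beside a median of 0.26 over all genes. In limma's moderated F test for any difference among the 6 groups, 5 of the 65 (7.69%) passed an adjusted p of 0.05, against 27.2% of all genes. The share was 30.5% among the 2039 other genes whose mean lay within the range of the 65. That set was dimmer, with a median level of 10.2 log2 units, against 10.9 for the 65. The median spread between replicate arrays was alike, 0.0799 for the 65 genes and 0.0841 for all genes. The 5 were MRPS12, MRPL27, MRPL20, MRP21 and MRPL6, 3 of the large and 2 of the small subunit. Their number depended on single arrays: it was 0 without either E62A array or without E62B replicate 1, 1 without PGM2 replicate 1, 2 without E62B replicate 2 and 3 without either REF array, while it was 8 without E62C replicate 1, 10 without SO16 replicate 1 and 11 without SO16 replicate 2.

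**Figure D1:**
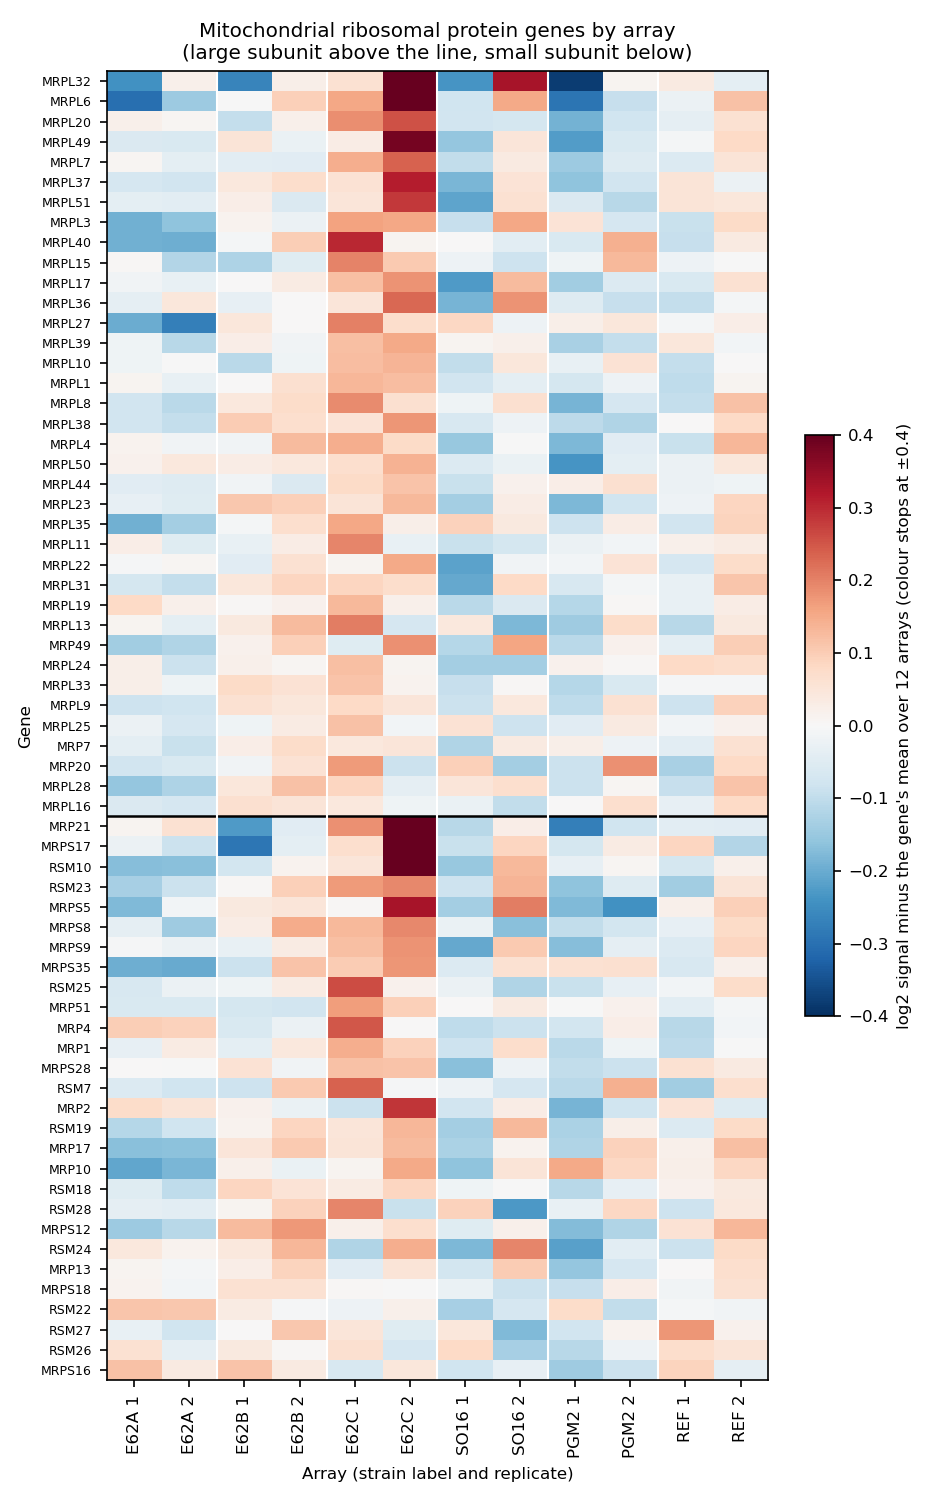
Heat map of the 65 mitochondrial ribosomal protein genes (rows, grouped by subunit) on the 12 arrays (columns, grouped by strain label), with colour giving each gene's log2 value minus its mean over the 12 arrays. The columns labelled E62C are mostly above the gene means (array averages of 0.10 and 0.13), and those labelled E62A mostly below them (-0.05 and -0.06).

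MRPS12 encodes the uS12 protein, whose bacterial relative lies at the decoding centre of the small subunit. Its values were 11.54 and 11.58 on E62A arrays, 11.81 and 11.86 on E62B, 11.71 and 11.76 on E62C, 11.64 and 11.71 on SO16, and 11.51 and 11.57 on arrays labelled PGM2, against 11.74 and 11.82 on REF arrays. The E62A and PGM2 arrays were thus the lowest and did not overlap REF. By limma, MRPS12 fell by 0.22 ± 0.06 (SE) log2 units in E62A (adjusted p = 0.0418) and by 0.24 ± 0.06 on the arrays labelled PGM2 (adjusted p = 0.0273), the only gene of the 65 called in more than 1 comparison with REF. Both comparisons share the REF arrays. Each call ended when either array of E62A, E62B, PGM2 or REF was left out, with adjusted p between 0.0582 and 0.248 for E62A and between 0.0517 and 0.181 for PGM2.

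MRPL27, the mL41 protein of the large subunit, was low in E62A. It read 10.80 and 10.73 on E62A arrays, 11.0468 and 11.0035 on E62B, 11.21 and 11.07 on E62C, 11.09 and 10.98 on SO16, and 11.03 and 11.05 on PGM2, against 10.99 and 11.03 on REF arrays. Both E62A arrays lay below the other 10. The fall of 0.25 ± 0.07 log2 units in E62A against REF passed at an adjusted p of 0.0414 (limma), and it too was lost without either array of E62A, E62B, PGM2 or REF (adjusted p between 0.0606 and 0.282).

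MRP21, the small subunit protein bS21, had its highest values on E62C arrays, 10.47 and 10.83, against 10.25 and 10.24 on REF arrays. It read 10.30 and 10.35 on E62A, 10.06 and 10.24 on E62B, 10.18 and 10.32 on SO16 and 10.02 and 10.21 on PGM2. The difference between E62C and REF, 0.41 ± 0.12 log2 units, passed at an adjusted p of 0.0493 (limma). The E62C replicates were 0.36 apart, and the higher was the array that stood apart. The call ended without that array and without either array of E62A, E62B, PGM2 or REF (adjusted p between 0.0543 and 0.273).

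MRPL20 and MRPL6 passed the F test without passing any comparison with REF. MRPL20 encodes mL58, and its E62C arrays, 11.57 and 11.64, were above all others, which lay between 11.20 and 11.45. The largest separation for MRPL20 was between E62C and PGM2, 0.36 ± 0.07 log2 units (adjusted p = 0.00972, limma). MRPL6 encodes uL6, a homologue of bacterial L6. It read 10.51 and 10.67 on E62A arrays, 10.81 and 10.91 on E62B, 10.97 and 11.23 on E62C, 10.73 and 10.96 on SO16 and 10.52 and 10.72 on PGM2, against 10.79 and 10.93 on REF arrays. The REF arrays lay between these extremes, so that neither E62A (-0.27 ± 0.11, adjusted p = 0.164) nor E62C (0.24 ± 0.11, adjusted p = 0.222) was called against REF by limma. The next gene by F was MRPL38, the uL14 protein (adjusted p = 0.0719). At the other end, the smallest F values were those of MRP20 (0.30) and MRPL25 (0.39), both of the large subunit, whose group means spanned 0.12 and 0.10 log2 units.

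**Figure D2:**
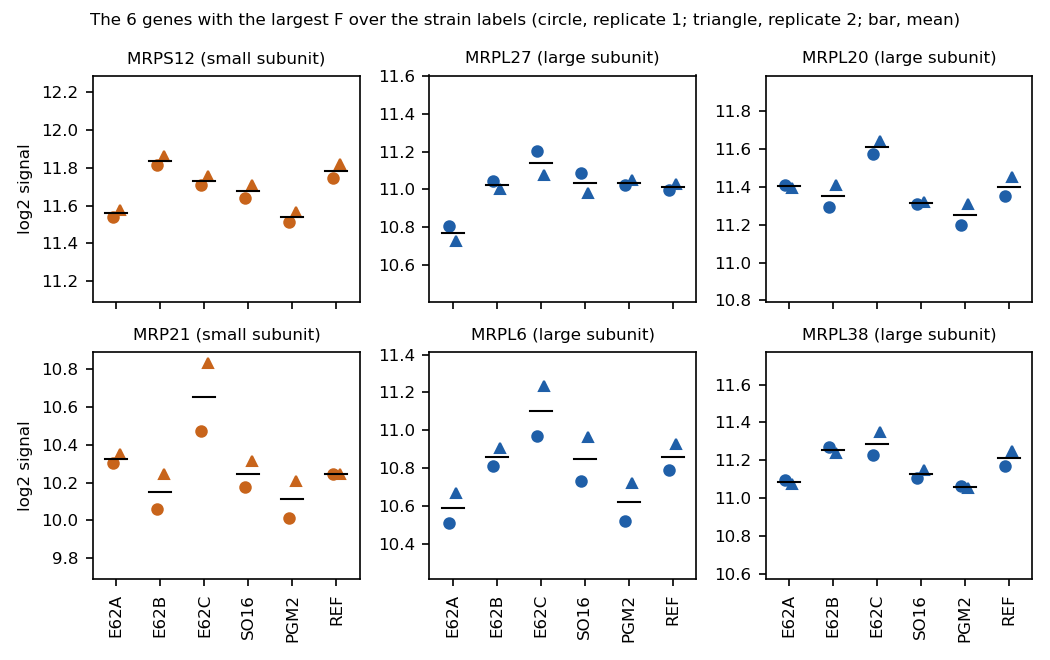
Log2 signal (y axis) of the 6 genes with the largest F on each array, a panel per gene, by strain label (x axis), with circles for replicate 1, triangles for replicate 2 and bars for the group mean. MRPS12 is lowest in PGM2 and E62A, MRPL27 is lowest in E62A, and MRPL20, MRP21 and MRPL6 are highest in E62C, where the MRP21 replicates lie 0.36 apart.

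Across the 5 comparisons with REF, 4 of 325 gene differences passed the test, in 3 genes. In E62A, 2 of the 65 fell, MRPL27 and MRPS12, and none rose, against 12.5% of all genes called (6.97% lower and 5.56% higher). The median difference of the 65 was -0.05 log2 units, beside 0.0035 over all genes, and 15 genes had a positive difference, against 50.8% of all genes. In 31 genes (47.7%) both E62A arrays lay below both REF arrays, against 30.6% of all genes, and in 3 they lay above, against 30.9% of all genes. The largest difference that did not pass was that of MRPL6, followed by MRP10, a small cysteine-rich protein of the small subunit (mS37), at 11.20 and 11.23 on E62A arrays, against 11.43 and 11.49 on REF arrays (-0.25 ± 0.08, adjusted p = 0.0738, limma). No gene was called without either array of E62A, E62B, PGM2 or REF, and leaving out REF replicate 1 put the median at -0.08, leaving out REF replicate 2 at -0.03.

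E62B was close to REF. None of the 65 genes was called, none had an unadjusted p under 0.05, and 0% of all genes passed, with 97 of them at an unadjusted p under 0.05 (limma). The median of the 65 was 0.02 log2 units, beside 0.02 for all genes, and it was -0.03 without REF replicate 1. Of the 65 differences 42 were positive, against 59.5% of all genes. Within 0.1 of REF were 62 of the 65, against 82.6% of all genes. The largest differences were those of MRPS17 (uS17), -0.15 ± 0.13, and MRPL32, -0.12, both with an adjusted p of 0.9995. E62B arrays lay above both REF arrays in 4 genes, against 17.3% of all genes, and below both in 7, against 13.2%.

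On the arrays labelled E62C, the genes lay above REF as a group while 1, MRP21, was called, against 9.8% of all genes (4.84% higher). The median was 0.10 log2 units, beside 0.03 over all genes, and 57 of the 65 differences were positive (57.7% of all genes). In 26 genes (40%) both E62C arrays were above both REF arrays, against 29.1% of all genes, and in 0 genes were both below, against 19.7%. An unadjusted p under 0.05 was reached by 10 of the 65 (15.4%), fewer than the 24.6% of all genes. E62C had the highest of the 6 group means in 46 genes (70.8%), a position it held in 25.6% of all genes, and the lowest in 0. The median dropped to 0.06 when REF replicate 1 was left out, was 0.15 when REF replicate 2 was, and stayed at 0.10 without E62C replicate 2. The count of calls was 0 without either array of E62A, E62B, PGM2 or REF and 3 without E62C replicate 1.

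On the arrays labelled SO16, none of the 65 genes was called, against 8.79% of all genes (5.1% lower and 3.69% higher). An unadjusted p under 0.05 was reached by 1 of the 65 (1.54%), against 20.8% of all genes (limma). The median was -0.03 log2 units, beside -0.0040 over all genes, and 18 differences were positive, against 48.7% of all genes. MRPL24, the bL28 protein of the large subunit, had the largest difference. It read 10.48 and 10.48 on SO16 arrays, against 10.70 and 10.69 on REF arrays, a difference of -0.21 ± 0.07 (adjusted p = 0.0749). RSM27 of the small subunit followed at -0.16. Both SO16 arrays were below both REF arrays in 13 genes (20%), against 21.3% of all genes, and above them in 1, against 19.4%. The sign of the median rested on single arrays, since it was -0.09 without SO16 replicate 2 and 0.0055 without SO16 replicate 1, and -0.08 without REF replicate 1.

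On the arrays labelled PGM2, 1 gene, MRPS12, fell, against 13.6% of all genes called (6.53% lower and 7.03% higher). The median was -0.06 log2 units, beside 0.0090 over all genes, and 16 differences were positive, against 52.3% of all genes. Both PGM2 arrays were below both REF arrays in 24 genes (36.9%), against 25.8% of all genes, and above in 4, against 29.8%. MRPS5, the uS5 protein, had the largest difference, at 9.89 and 9.82 on PGM2 arrays, against 10.08 and 10.16 on REF arrays (-0.27 ± 0.12, adjusted p = 0.202, limma). PGM2 had the lowest group mean in 25 genes (38.5%, against 20.9% of all genes) and E62A in 21 (32.3%, against 26.4%). The median moved between -0.11 without PGM2 replicate 2 and -0.03 without REF replicate 2. The 1 call was lost without either array of E62A, E62B, PGM2 or REF.

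How small these differences were can be read from their intervals. The 95% interval of the difference from REF lay within 1.5-fold in either direction for 64 genes in E62A, 64 in E62B, 63 in E62C, 65 in SO16 and 64 in PGM2. Over all genes the same held for 91%, 98.7%, 91.3%, 92.2% and 90.3%. A difference of at least 0.3 log2 units was reached by 2 of the genes in E62C, MRP21 and MRPL32, and by 0 in the other 4 groups. MRPL32 did so without passing the test (0.37 ± 0.22, adjusted p = 0.343, limma). Over all genes, that size was reached by 11.7% in E62C, 11.9% in E62A, 0.771% in E62B, 9.8% in SO16 and 12.8% in PGM2.

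**Figure D3:**
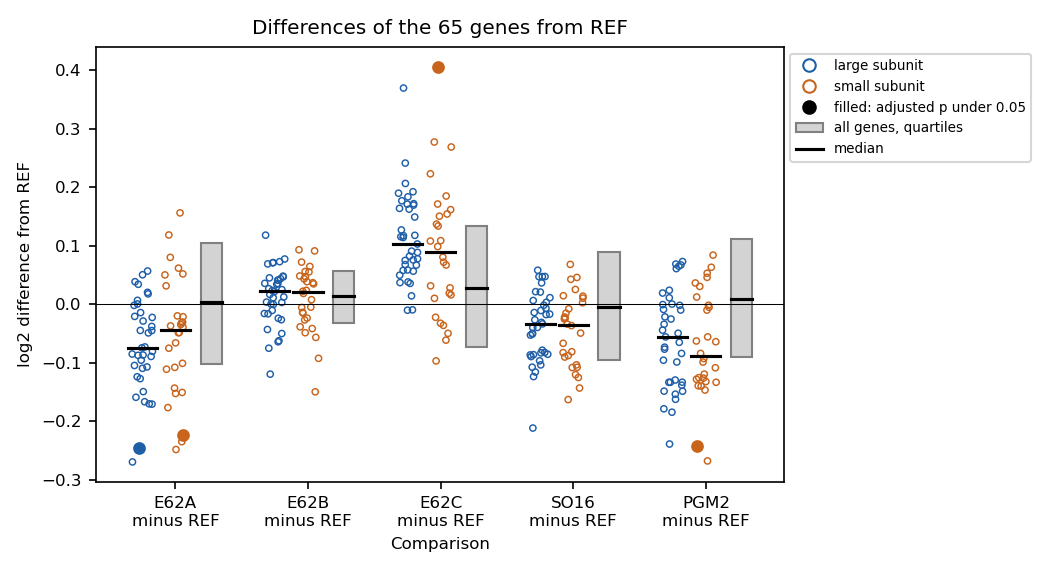
Log2 difference from REF of each of the 65 genes in the 5 strain labels, with large subunit genes in blue and small subunit genes in orange, filled points for those past the limma threshold, bars for medians and grey boxes for the quartiles of all genes. The points of E62B lie closest to 0, those of E62C lie mostly above 0 (57 of 65), and those of E62A and PGM2 mostly below.

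The medians of the large and the small subunit genes had the same sign in all 5 comparisons and lay close together with all arrays included. Against REF they were -0.07 for the large and -0.04 for the small subunit in E62A, 0.02 and 0.02 in E62B, 0.10 and 0.09 in E62C, -0.03 and -0.03 in SO16, and -0.06 and -0.09 in PGM2. The gap between the subunits was at most 0.03 log2 units, in E62A (-0.03) and PGM2 (0.03), where the pooled spread of this gap between replicate arrays was 0.0188. The gap moved with single arrays: it was -0.0030 in E62A without REF replicate 2 and -0.0016 in PGM2 without PGM2 replicate 1, while in E62C it was 0.0551 without E62C replicate 2 and 0.0342 without E62C replicate 1, against 0.0135 with all arrays. No test was made of it. In the F test, 3 of 37 large subunit genes (8.11%) and 2 of 28 small subunit genes (7.14%) passed. Counts of non-overlapping arrays were less close in some comparisons. In E62C, 16 of 37 large subunit genes (43.2%) and 10 of 28 small subunit genes (35.7%) lay above REF, against 29.1% of all genes. In E62A, 18 of 37 (48.6%) and 13 of 28 (46.4%) lay below, against 30.6%. Below REF in PGM2 were 12 of 37 (32.4%) and 12 of 28 (42.9%), against 25.8%. In SO16 they were 6 (16.2%) and 7 (25%), against 21.3%. Both E62C arrays lay above both E62A arrays in 31 of 37 (83.8%) and 18 of 28 (64.3%), against 36.1%. Differences of E62C from REF were positive in 35 of 37 and 22 of 28, against 57.7%.

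**Figure D4:**
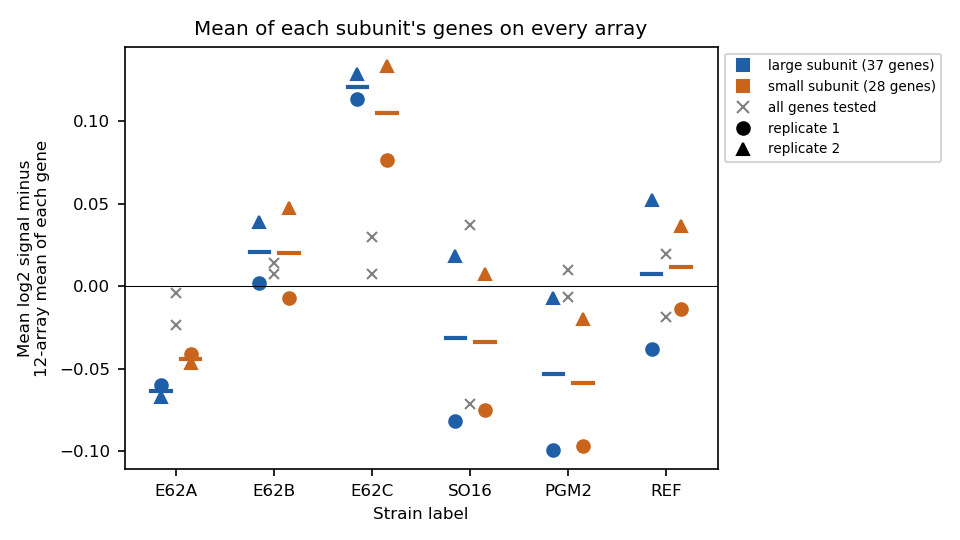
Mean of the gene-centred log2 values of the large (blue) and the small (orange) subunit genes on each array, by strain label, with circles for replicate 1, triangles for replicate 2, bars for the group mean and grey crosses for all genes. The bars of both subunits lie close together in each group, and E62C averages 0.12 for the large and 0.10 for the small subunit.

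Whole-group levels can be put on 1 scale by centring each gene on its mean over the 12 arrays and averaging the 65 genes on an array. The averages were -0.06 ± 0.0046 log2 units in E62A, 0.02 ± 0.03 in E62B, 0.11 ± 0.02 in E62C, -0.03 ± 0.07 in SO16 and -0.06 ± 0.06 in PGM2, against 0.0089 ± 0.05 in REF (SD, n = 2 arrays each). The 2 E62C arrays, at 0.10 and 0.13, were above all other arrays, whose highest value was 0.05 on REF replicate 2. Both E62A arrays, at -0.05 and -0.06, lay below both REF arrays, the lower of which was at -0.03, while the arrays of E62B, SO16 and PGM2 overlapped those of REF. An exact permutation test of 2 arrays against 2 cannot give a p under 0.333, and none was made. In bulk RNA, fewer transcripts per cell and fewer cells that make them cannot be told apart.

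Among the 65 genes, the contrast between 2 evolved labels, E62C and E62A, held the most calls of the 15 pairs of groups. Over all genes, more were called in E62A against PGM2 (22.7%) and in E62A against SO16 (19.9%). Here 12 of the 65 (18.5%) were higher in E62C and 0 lower, against 17.8% of all genes called, 9.97% higher and 7.84% lower. The median difference was 0.16 log2 units, beside 0.03 over all genes, and 60 of 65 were positive, against 56.2% of all genes. In 49 genes (75.4%) both E62C arrays lay above both E62A arrays, against 36.1% of all genes, and in 1 both lay below, against 27.2%. The 12 were 6 large subunit genes, MRPL3, MRPL6, MRPL27, MRPL35, MRPL39 and MRPL40, and 6 small subunit genes, MRP10, MRP51, MRPS8, MRPS35, RSM10 and RSM23.

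MRPL6 led with 0.51 ± 0.11 log2 units (adjusted p = 0.0113, limma). MRPL27 rose by 0.37 ± 0.07 (adjusted p = 0.00429) and MRPS35, the mS45 protein, by 0.34 ± 0.08 (adjusted p = 0.0133). MRPS35 read 9.91 and 9.99 on E62C arrays, against 9.62 and 9.61 on E62A arrays, with all 4 REF and SO16 values between these groups. RSM10, the uS10 protein, read 11.41 and 11.82 on E62C arrays, against 11.19 and 11.19 on E62A arrays. Its difference of 0.42 ± 0.12 (adjusted p = 0.0375) was no longer called without the higher array, which stood apart, or without either array of E62A, E62B, PGM2 or REF (adjusted p of up to 0.247). The MRPL6 call was lost without E62A replicate 1 or E62C replicate 2 (up to 0.115), that of MRPL27 without E62A replicate 2 (0.0537) and that of MRPS35 without either E62A array or E62C replicate 2 (up to 0.0887). The smallest called difference was that of MRP51, 0.19 ± 0.06 (adjusted p = 0.0464, called in 2 of the 12 fits with 1 array left out), whose product, bS1m, is linked by yeast genetics to the leaders of mitochondrial mRNAs. RSM23, at 0.29 ± 0.09, is the yeast relative of human DAP3 (mS29).

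The direction of this contrast was steadier than its count. The median stayed between 0.15 and 0.16 when each array was left out in turn. The count of called genes fell most without either E62A array and next most without E62C replicate 2, and it rose without either SO16 array. Over all genes, fewer were also called without either E62A array or either E62B array. Without both arrays that stood apart the median was 0.15, beside 0.02 over all genes. E62C set against PGM2 gave 5 higher genes, MRP21 (0.54), MRPL6 (0.48), MRPL20 (0.36), MRPL7 (0.29) and MRPL39 (0.25), against 8.85% of all genes called (3.87% higher), and set against SO16 it gave 1, MRPL20, at 0.29, against 3.43% (1.52% higher). The 2 engineered labels, SO16 and PGM2, differed in 0 of the 65 genes, against 3.4% of all genes called. An unadjusted p under 0.05 was reached by 1 of the 65 (1.54%), against 17.2% of all genes (limma).

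Genes of bacterial families and of mitochondria-specific families had similar medians. Of the 65 genes, 40 have a bacterial relative, 24 belong to mitochondria-specific families and 1, RSM22, to neither list. The medians against REF were -0.05 for bacterial families and -0.07 for mitochondria-specific ones in E62A, 0.10 and 0.11 in E62C, and -0.08 and -0.06 in PGM2. In the F test 3 of 40 (7.5%) and 2 of 24 (8.33%) passed. MRPS12 and RSM19, which encodes uS19, were the only 2 of them next to each other in the R64 annotation. RSM19 read 10.28 and 10.31 in E62A and 10.27 and 10.42 on PGM2 arrays, against 10.34 and 10.47 on REF arrays, with differences of -0.11 and -0.06 log2 units that did not pass (adjusted p = 0.5396 and 0.757, limma).

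Replicates of some genes were far apart on the arrays with unusual controls. MRPL32, the bL32 protein, which a protease of the inner membrane trims after import, had the widest span of group means, 0.55 log2 units, and yet did not pass the F test (adjusted p = 0.361). It read 11.48 and 11.74 on E62A arrays, 11.46 and 11.74 on E62B, 11.78 and 12.40 on E62C, 11.48 and 12.05 on SO16, and 11.34 and 11.73 on PGM2, against 11.76 and 11.68 on REF. Replicate 2 was thus above replicate 1 in 5 of the 6 groups. Replicates differed by more than 0.3 log2 units in 7 genes in E62C, all higher in replicate 2, in 7 genes in SO16, 6 of them higher in replicate 2, in 1 gene in PGM2 and in 0 genes in the other groups. The shares of all genes were 10.2% in E62C, 14.3% in SO16 and 2.9% in PGM2. MRPL32 and MRPS5 were in both sets of 7. Over the 65 genes the replicate differences of E62C and SO16 correlated at r = 0.74 (rho = 0.72), beside 0.54 over all genes. This is a description across genes, which share the same 4 arrays. Whether the unusual controls account for these genes' values was not tested.

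**Figure D5:**
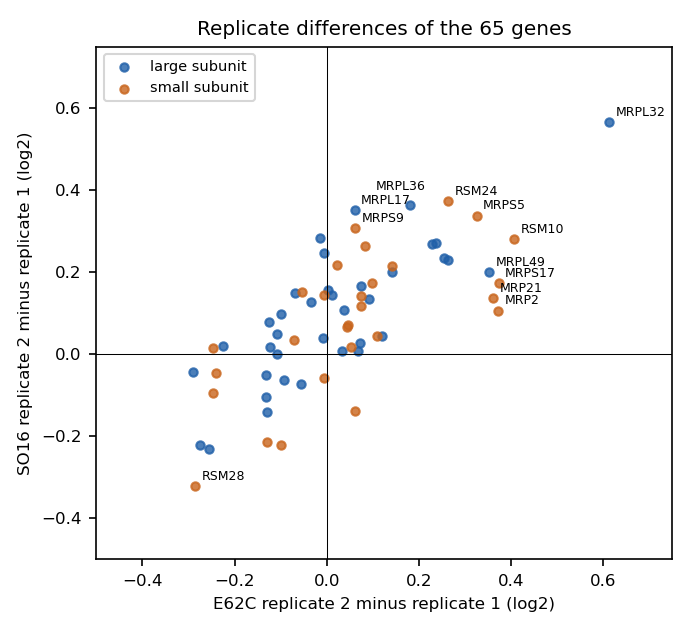
Replicate 2 minus replicate 1, in log2 units, for each of the 65 genes in E62C (x axis) and in SO16 (y axis), with large subunit genes in blue, small subunit genes in orange and names for genes past 0.3 in either. MRPL32 lies farthest out, at 0.61 in E62C and 0.57 in SO16, and the points rise together (r = 0.74).

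Leaving out both of those arrays changed which genes were called against REF. The share of all genes called rose as well, to 22.9% in E62A, 13.7% in E62C, 16.5% in SO16 and 22.2% in PGM2, and the share of the 65 stayed below it in each. In E62A, 5 genes (7.69%) were lower, MRP10, MRPL27, MRP17, MRPS12 and MRPL6. In E62C, 2 (3.08%) were higher, MRPL40 (0.33) and MRP4 (0.31), and MRP21 was not called. In SO16, 2 were lower, MRPS28 (-0.22) and MRPL51 (-0.26), and in PGM2 2 were lower, MRPS5 (-0.27) and MRPS12 (-0.24). These fits hold 1 array each for E62C and SO16, which is assumed to vary like the other groups.

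Other genes of mitochondrial protein synthesis were counted list by list, beside the share of all genes called, 12.5% in E62A, 9.8% in E62C, 8.79% in SO16 and 13.6% in PGM2. The 12 listed ribosomal proteins with other names had 0 calls in the 5 comparisons with REF, with medians between -0.08 (E62A) and 0.04 (E62B). The probe set of EHD3 was not above background. Of 10 mitochondrial translation factors, 3 fell in E62A, the release factor MRF1 (-0.42), the release factor methyltransferase MTQ1 (-0.34) and the recycling factor RRF1 (-0.30), and 1, the initiation factor AIM23 (-0.37), fell in SO16. MRF1 kept its call in all leave-outs but that of E62A replicate 2 (adjusted p = 0.0787), RRF1 lost it without either array of E62A or REF (adjusted p of up to 0.133), and MTQ1 lost it without either array of E62A, E62B, PGM2 or REF (up to 0.246). AIM23 lost it without REF replicate 1 or either array of E62B, PGM2 or SO16 (up to 0.323).

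Of 16 mitochondrial tRNA synthetases, 2 rose and 1 fell in E62A, 1 rose in E62C, 1 rose in SO16 and 0 changed in E62B and PGM2. Of the 12 fits with 1 array left out, the E62A calls held in 8 (DIA4, 0.29), 9 (MSW1, 0.27) and 9 (MSM1, -0.26), the E62C call in 5 (ISM1, 0.33) and the SO16 call in 3 (MSK1, 0.36). Of 16 translational activators, 1, CBP6, which acts in cytochrome b synthesis, fell in SO16 (-0.42) and in PGM2 (-0.32), calls that held in 10 and in 5 of the 12 fits with 1 array left out. Of 10 ribosome assembly factors and 7 transcription and mitochondrial DNA genes, 1 each fell in PGM2 (MAM33, -0.25, and MGM101, -0.21, each kept in 4 of those fits), and of 7 membrane insertion genes 0 changed. Among 20 import genes 2 rose in E62C (PAM16, 0.29, kept in 9 fits, and TIM44, 0.27, kept in 3), 1 fell in SO16 (TIM21, -0.36, kept in 5) and 1 rose in PGM2 (TIM44, 0.24, kept in 3).

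Of 36 nuclear respiratory chain and ATP synthase subunits, 4 fell in E62A (median -0.11), and all 36 differences were below 0, against 49.2% of all genes. Among these calls, ATP17 (-0.25) held in 4 and ATP15 (-0.25) and QCR10 (-0.25) in 6 of the 12 fits with 1 array left out, and all 3 were lost without either array of E62A, E62B or REF. COX5B, the subunit isoform known from low oxygen, fell in PGM2 by 0.77, with smaller calls in E62C (-0.40) and SO16 (-0.45), where the call in E62C was lost without REF replicate 1 or E62C replicate 1 and that in SO16 without REF replicate 1. Of 128 cytosolic ribosomal protein genes, 1 fell in E62A and 1 in PGM2, and 2 passed the F test, against 27.2% of all genes. Of 53 genes of cytosolic ribosome biogenesis, 1 rose in E62A, against 5.56% of all genes, and 7 rose in E62C, against 4.84%. Their median in E62C was 0.16 log2 units, beside 0.03 over all genes. Of 9 regulators of nuclear genes for mitochondrial proteins, which include PUF3 and the HAP genes, 1, HAP2, fell on the arrays labelled PGM2 (-0.36), and this call held in 3 of the 12 fits with 1 array left out.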

How the data were processed

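The deposited series table holds log2 expression values, 1 column per array, which the authors made with RMA in the affy package, per the submitters' processing notes (no versions named there). RMA corrects background, normalises by quantiles and summarises probes, so it removes overall differences between arrays and compresses low values. The array carries 10928 probe sets, of which 7244 have 1 symbol and 1 has several in the platform annotation; 5498 of these matched a gene of the R64 annotation, and the other 1746, mostly of fission yeast, served for the background. The brightest probe set stood for each gene, which gave 5449 genes.

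The 12 arrays (2 per group) were fitted together in limma 3.58.1 (R 4.3.3), with a mean per group and an empirical Bayes variance (6 residual and 4.97 prior degrees of freedom); p-values were adjusted by Benjamini-Hochberg over all 5449 genes in each comparison, with a threshold of 0.05. Arrays hold no read depth, and their number limits the precision. The scripts were tested on simulated data. Figures used matplotlib 3.10.9. The genes and all lists were chosen with earlier results of these data known. Named were called genes whose arrays do not overlap REF, or the 2 largest differences where none was called, the largest and smallest F values, the extremes of level, and up to 3 called genes of each other list; the genes named for replicate differences and the classes by family were chosen after their values were seen. 19 alternatives were tried: other centrings, filters, probe set rules, variance models, thresholds, a replicate block and left-out arrays.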

Additional observations from a re-analysis of the deposited data

Results flagged for a closer look

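The genes below differed between the evolved labels E62C and E62A in the direct limma test of that difference (adjusted p under 0.05). The REF mean does not enter this contrast. For the large subunit the differences, in log2 units with E62C higher, were 0.51 for MRPL6, 0.37 for MRPL27, 0.35 for MRPL40, 0.33 for MRPL3, 0.25 for MRPL35 and 0.20 for MRPL39. For the small subunit they were 0.42 for RSM10, 0.34 for MRPS35, 0.29 for RSM23, 0.28 for MRP10, 0.25 for MRPS8 and 0.19 for MRP51. These 12 are 18.5% of the 65 genes, close to the 17.8% of all genes called in the same comparison. With 1 array left out, the count fell most without either E62A array, where fewer of all genes were called as well. It fell next most without E62C replicate 2. The PGM2 gene is highest on the arrays labelled E62C and goes against the label PGM2, so the strain behind the label E62C is not certain.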

How the results depend on the processing

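The signs of the medians over the 65 genes held for all 5 comparisons with REF under every centring and filter, and moved by more than the replicate spread in SO16 only, where the median was -0.0884 without both arrays that stood apart. Without them the gap between large and small subunit medians was 0.0551 in E62C and -0.0217 in SO16. Counts of called genes among the 65 were small and moved with the settings, and the numbers called over all genes moved too. In the main fit those were 683 in E62A, 534 in E62C, 479 in SO16 and 739 in PGM2 against REF, and 970 in E62C against E62A. The F test gave 9 of the 65 with median centring, 13 with array weights and 10 with the replicate block and median centring together. It gave 0 at an adjusted p of 0.01. Its count over all genes was not taken under these settings. E62C against E62A gave 7 after quantile normalisation, beside 1181 of all genes, and 5 with centring on fission yeast probe sets, beside 870. With only these groups fitted it gave 5, beside 706. It gave 1 at an adjusted p of 0.01, beside 440, and 1 with a floor of 0.5 on the difference, beside 278. E62A against REF gave 1 with fission yeast centring, beside 636 of all genes, and 4 with array weights, beside 1224. With only these groups fitted it gave 5, beside 1113. At 0.01 or with the floor it gave 0, beside 352 and 242. E62C against REF gave 0 with fission yeast centring, with all probe sets, with array weights, with only these groups, at 0.01 and with the floor. Beside these stood 487 of all genes, 528 of all probe sets, and 402, 316, 265 and 189 of all genes. SO16 against REF gave 1 with all probe sets, beside 496 of all probe sets. PGM2 against REF gave 0 at 0.01 or with the floor, beside 379 and 299 of all genes. The cause was not tested.

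Leaving out 1 array at a time gave 0 to 3 called genes in E62A, 0 in E62B, 0 to 3 in E62C, 0 in SO16 and 0 to 1 in PGM2 against REF, 1 to 16 in E62C against E62A, 0 in SO16 against PGM2 and 0 to 11 in the F test. Medians ran from -0.0832 to -0.0288 in E62A, -0.0289 to 0.0584 in E62B, 0.0565 to 0.1455 in E62C, -0.0884 to 0.0055 in SO16 and -0.1146 to -0.025 in PGM2. The gap between subunits ran from -0.0393 to -0.003 in E62A, -0.0259 to 0.0203 in E62B, 0.0015 to 0.0551 in E62C, -0.0217 to 0.0223 in SO16 and -0.0016 to 0.0397 in PGM2.

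The replicate numbers are shared by all groups, and whether they pair the arrays is not settled. Same-numbered deviations correlated between -0.35 and 0.54 over all genes, above 0.1 in 6 of 15 pairs of groups, and between -0.35 and 0.74 over the 65 genes, above 0.1 in 11 of 15. The criterion, a correlation above 0.1 in each of the 15 pairs, was thus not met, and the block is an alternative here. With the replicate block the counts were 4 in E62A, 2 in E62C and 2 in PGM2 against REF, beside 794, 632 and 818 of all genes. They were 7 in the F test and 19 in E62C against E62A, the latter beside 1162 of all genes. With the block and median centring together they were 5 in E62A, 2 in E62C, 1 in SO16 and 2 in PGM2 against REF. Beside these stood 939, 717, 675 and 943 of all genes. SO16 against PGM2 then gave 1, beside 386.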
